A study of Bos taurus with 12 samples.

Results

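The muscle miRNAs bta-miR-1, bta-miR-133a, bta-miR-133b, bta-miR-206, bta-miR-208b and bta-miR-499 were examined in extracellular vesicles (EVs) from bovine blood plasma. These 6 miRNAs were chosen by name from the 783 bovine miRNAs of the deposited table, of which 336 had a read in any library. The 12 small RNA libraries came from 6 Charolais- and Limousin-cross heifers aged 21 to 32 months. All 6 had their estrous cycles synchronized, and blood was taken on Day 7 of an unstimulated cycle (U) and again on Day 7 of a superstimulated cycle (S). Superstimulation was a 4 d course of follicle stimulating hormone in decreasing doses from Day 10, with prostaglandin given during the course and artificial insemination after it. Low (L) and high (H) responders were taken from the lower and the upper quartile of a larger herd by the number of corpora lutea after superstimulation. The groups were therefore UL and UH (unstimulated cycle, low and high responders) and SL and SH (superstimulated cycle, the same low and high responders), with 3 libraries in each. Libraries of UL and SL, or of UH and SH, with the same number were treated as 1 heifer. This rests on the numbering of the study, since the labels do not name the heifer, and the values did not bear it out. The S comparison of responders thus used the same 6 animals as the U comparison and was not a second set of heifers.

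Mature miRNAs of about this length guide a silencing complex to messenger RNAs that pair with the seed, the bases 2 to 8 of the miRNA. The members are known as myomiRs because they are made mainly in striated muscle, and they reach the blood both in vesicles and bound to protein. miR-1 and miR-133a are abundant in heart and skeletal muscle, where miR-1 is linked to differentiation of myoblasts and miR-133a to their proliferation. miR-206 is made in skeletal muscle and hardly in the heart, and is induced in muscle differentiation and regeneration, and miR-133b is transcribed with it. miR-208b and miR-499 lie within myosin heavy chain genes and are linked to the slow fiber programme and the heart.

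The mature sequences are shown because the members form families that a count table has to keep apart by a few bases. They are the sequences of the deposited table, written 5′ to 3′ as DNA letters with the seed in capitals.
bta-miR-1: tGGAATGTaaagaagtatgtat
bta-miR-206: tGGAATGTaaggaagtgtgtgg
bta-miR-133a: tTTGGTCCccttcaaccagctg
bta-miR-133b: tTTGGTCCccttcaaccagcta
bta-miR-208b: aTAAGACGaacaaaaggtttgt
bta-miR-499: tTAAGACTtgcagtgatgttt

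miR-1 and miR-206 shared their seed with each other and with no other miRNA of the table. Counted from the 5′ end, they differed at 4 of 22 bases, A11G, A17G, A21G and T22G, with the base of miR-1 given in front of the position and that of miR-206 behind it. miR-133a and miR-133b also shared a seed and differed by the last base alone, G22A. The reads of this pair therefore depended on a single 3′ terminal base, and the authors counted perfect matches. The seed of miR-208b was shared with miR-208a, which had 0 reads in all 12 libraries, and the seed of miR-499 with no other miRNA of the table. The seeds of miR-208b and miR-499 differed at their last base, G8T. In the RefSeq annotation of assembly ARS-UCD2.0, which was used for names and neighbours only, 8 genes encode the hairpins of the members. MIR206 neighboured MIR133B. MIR1-1 neighboured MIR133A-1, and MIR1-2 neighboured MIR133A-2 within MIB1. MIR208B lay within MYH7 and MIR499 within MYH7B.

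The known miRNA reads per library ranged from 21466 to 77433, with a median of 41190. Reads were scaled with TMM factors to the mean depth and are given as normalized reads. A count of 3 reads, taken as the limit of detection, corresponded to 1.82 normalized reads in the deepest library (SH3) and to 6.08 in the shallowest (SH2). These limits and all intervals given here cover counting error only.

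The members fell into 2 sets by abundance. miR-1, miR-133a and miR-206 had reads in all 12 libraries, with totals of 1773, 878 and 201 reads. miR-499 had 19 reads over 8 libraries, miR-133b had 7 reads over 2 libraries and miR-208b had 5 reads over 2 libraries. miR-133c, the other miRNA of that name in the table, had 0 reads in every library.

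UL1 held the highest level of each member. It held 70.28% of all miR-1 reads of the study, 57.63% of those of miR-133a and 46.77% of those of miR-206. The 6 members made up 4.524% of the known miRNA reads of UL1 (exact 95% interval 4.326 to 4.729), against 0.07427 to 0.4198% in the other 11 libraries, with a median of 0.2249%. miR-1 was the 5th most abundant miRNA of UL1, whereas its rank elsewhere was between 40 (SH2) and 79 (SH3). Of 111 miRNAs with at least 10 reads in UL1, 3 were at least 2 times as high as in the next library, and these were miR-1, miR-133a and miR-206. The next in that order, miR-146a, was 1.95 times as high. That UL1 dominated members other than miR-206 was known beforehand, and the filter on UL1 reads admits miRNAs that are high there. This order is therefore a description with no test. Counted in the same way over their own miRNAs, SH3 had 7 such miRNAs, SH1 had 6, SL2 and SH2 had 2 each, SL3 had 1 and the other 6 libraries had 0, so UL1 did not stand apart in their number. Its largest ratio, 11.4 for miR-1, was above those of the other libraries, of which the next was 5.65 for miR-184 in SL2. The depth of UL1, 41178 reads, was close to the median. In plasma, more vesicles from muscle and more copies in each vesicle cannot be told apart. Because 3 libraries made a group, the fitted differences that involve UL are given with and without UL1. As the dominance of UL1 was known beforehand, their change without UL1 is a description too. miR-133b had a read in a single UL library besides UL1 and could not be tested without it. It was tested only because of these 2 UL libraries, and UL is the group where it is high. Its P values and calls below are therefore a description and no evidence.

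miR-1, the most abundant member, had 1158.9 normalized reads in UL1, 37.4 in UL2 and 76.8 in UL3. It had 91.9, 21.5 and 44.8 in UH1 to UH3. It had 47.1, 49.7 and 60.8 in SL1 to SL3, and 51.5, 101.4 and 26.1 in SH1 to SH3. UL1 was 11.4 times as high as the next library, SH2, and the other 11 libraries stayed between 21.5 and 101.4 with all 4 groups overlapping. The group mean was 424.3 ± 636 for UL and 52.7 ± 35.8 for UH, and after superstimulation 52.5 ± 7.29 for SL and 59.7 ± 38.3 for SH (SD, n = 3 each). The SD of UL exceeded its mean.

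miR-133a, which is cut from the same primary transcripts as miR-1, had 470.6 normalized reads in UL1, 20.0 in UL2 and 27.9 in UL3. It had 48.9, 15.1 and 24.3 in UH1 to UH3. It had 75.6, 21.9 and 46.8 in SL1 to SL3, and 62.3, 54.7 and 30.4 in SH1 to SH3. UL1 was 6.23 times as high as SL1, the next library, while UL2 and UL3 were both within the range of UH. The mean of UL was 173 ± 258 and that of UH 29.4 ± 17.5, while SL had 48.1 ± 26.9 and SH 49.2 ± 16.7 (SD, n = 3 each).

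miR-206, the skeletal muscle member, was lower in the libraries of high responders in both cycles. It had 87.4 normalized reads in UL1, 17.3 in UL2 and 12 in UL3, against 4.4, 1.4 and 3.8 in UH1 to UH3. In the superstimulated cycle it had 40.9, 12.9 and 12.5 in SL1 to SL3, against 4.1, 8.1 and 3.0 in SH1 to SH3. The 6 H libraries lay between 1.4 and 8.1 and the 6 L libraries between 12 and 87.4, so the responders did not overlap in either cycle, with or without UL1. As miR-206 was chosen for this difference, this is a description. The mean was 38.9 ± 42.1 for UL against 3.22 ± 1.58 for UH, and 22.1 ± 16.3 for SL against 5.07 ± 2.68 for SH (SD, n = 3 each). UL libraries had 12 to 94 reads and UH libraries 2 to 5, and SL libraries had 8 to 33 reads and SH libraries 3 to 5, so the level in H heifers rested on a few reads in each library. SL1, which was treated as the same heifer as UL1 by its number, was the second highest library of all.

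**Figure D1:**
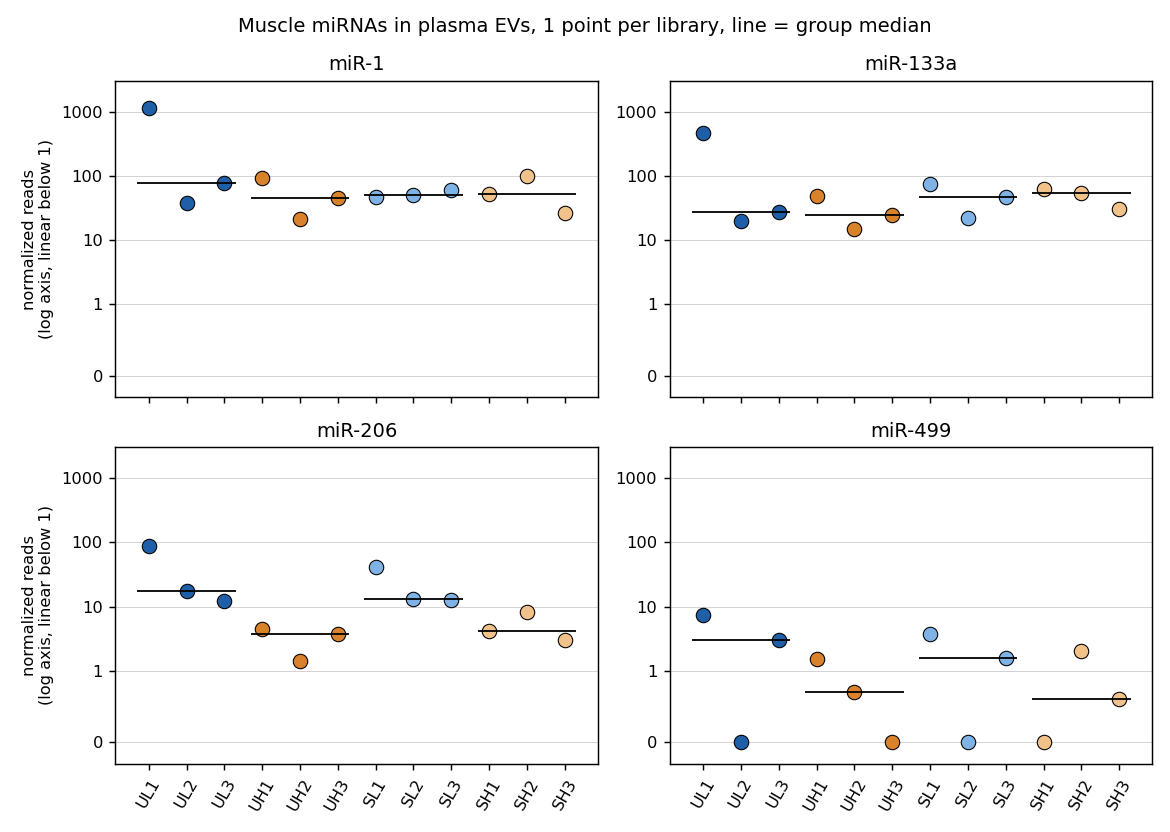
Normalized reads of miR-1, miR-133a, miR-206 and miR-499 in each of the 12 libraries, on a logarithmic axis that is linear below 1, coloured by group, with a line at the group median. UL1 is the highest point for all 4 miRNAs, and in miR-206 the 6 L libraries (12 to 87.4) lie above the 6 H libraries (1.4 to 8.1).

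The scarce members were close to the limit of detection. miR-133b, whose gene neighbours that of miR-206, had 5 reads in UL1, 2 in UL3 and 0 in the other 10 libraries. It thus had 0 reads in all 6 H libraries and in the 3 SL libraries, including SL1, where miR-206 had 33 reads. miR-208b had 4 reads in UL1 and 1 in UH2, and 0 elsewhere. miR-499 had 8, 0 and 3 reads in UL1 to UL3, 1, 1 and 0 in UH, 3, 0 and 1 in SL, and 0, 1 and 1 in SH. UL1 was the highest library for each of these 3 miRNAs too. No fold is given for miR-133b, since its mean in UL of 2.21 ± 2.33 normalized reads (SD, n = 3) was below what 3 reads are worth in UH1 (4.44).

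The composition of the muscle miRNA reads within a library does not depend on the scaling between libraries. In UL1, miR-1 made up 66.88% of the reads of the 6 members (exact 95% interval 64.69 to 69.02) and miR-133a 27.16% (25.15 to 29.24), which left 5.046% for miR-206. Over the summed reads of UL2 and UL3, miR-1 made up 57.84%, miR-133a 24.51% and miR-206 15.2%. In UH, the shares of these 3 miRNAs were 60.4, 34.4 and 4%. In SL they were 42.62, 37.92 and 18.12%, and in SH 48.88, 45.9 and 4.478%. The share of miR-206 in these sums was thus higher in SL, and in UL2 and UL3, than in UH and SH. In single libraries, that of miR-133a varied from 22.95% (UL3) to 52.87% (SH1).

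The number of miR-206 reads per miR-133a read was 0.186, 0.864 and 0.429 in UL1 to UL3 and 0.541, 0.591 and 0.267 in SL1 to SL3. It was 0.0909, 0.0952 and 0.156 in UH1 to UH3 and 0.0652, 0.148 and 0.1 in SH1 to SH3. All 6 L libraries were above the 6 H libraries, with UL1 (exact 95% interval 0.147 to 0.232) closest to the H range, where its interval overlapped those of all 6 H libraries, such as UH3 (0.0475 to 0.404). Per miR-1 read the separation was less complete. The H libraries lay between 0.0484 and 0.116 and the L libraries other than UL1 between 0.156 and 0.868, but UL1, with 0.0754 (0.0605 to 0.0931), lay among the H libraries. UL1 was therefore the L library in which miR-206 was highest in level and lowest relative to miR-1. These ratios share the miR-206 reads with the levels above and are given as a description.

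The ratio of miR-133a to miR-1 did not part the responders. It was between 0.532 and 1.21 in H and between 0.364 and 1.61 in L, and that of UL1, 0.406 (0.366 to 0.451), lay between UL3 (0.364) and UL2 (0.537). The 6 U libraries were between 0.364 and 0.7 and the 6 S libraries between 0.44 and 1.61, which overlap.

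**Figure D2:**
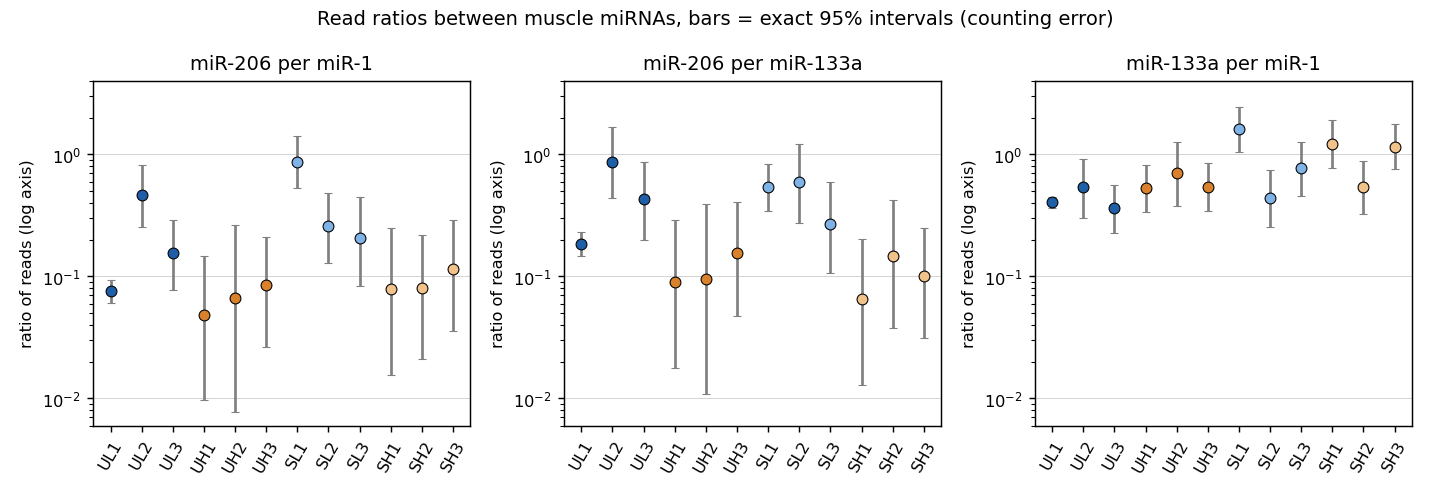
Ratios of reads between miR-206, miR-1 and miR-133a in each library on logarithmic axes, with exact 95% intervals for counting error. miR-206 per miR-133a is 0.0652 to 0.156 in the 6 H libraries and 0.186 to 0.864 in the 6 L libraries, whereas UL1 lies among the H libraries for miR-206 per miR-1 (0.0754).

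The comparison of UH with UL asked which EV miRNAs differed between future high and low responders before superstimulation. miR-206 was lower in UH by a log2 fold change of -2.79 (SE 0.73) on the scale of log2(normalized reads + 1). Without UL1, this was -1.95 (SE 0.78). UH1 and UH2 had 3 and 2 reads of miR-206, no more than the limit of detection. The size of its difference thus depended on the number added before the logarithm (pseudocount), with -2.96 for 0.5 and -2.52 for 2. miR-206 had been singled out because it differed by response in both cycles, so its values here and in SH vs. SL are a description with no test. The thresholds of the study were a difference of 2-fold or more, which is 1 on the log2 scale, and P no higher than 0.05 before adjustment. Apart from miR-206, 0 of 4 members tested passed them, and over all 227 miRNAs tested, miR-206 included, 2.64% did. With a count test (edgeR), the study itself called miR-1, miR-133a and miR-133b lower in UH at its thresholds, as well as miR-206. It also chose miR-206 and other miRNAs for quantitative PCR in an independent group of high and low responders, which is not part of these data. There it reported the sequencing direction for all chosen miRNAs, with only part of them significant. miR-208b had too few libraries with a read to be tested.

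miR-1 was lower in UH by -1.72 (SE 0.84, limma adjusted P = 0.93) and miR-133a by -1.27 (SE 0.81, limma adjusted P = 0.93), and neither passed. Without UL1, which was known to dominate these members, the values were -0.26 for miR-1 and 0.14 for miR-133a, with the sign of miR-133a changed. Without UL2, which leaves UL1 and UL3, miR-1 (-2.71), miR-133b and miR-499 (-1.84) passed. UL2 was the UL library with 0 reads of miR-133b, so this call of miR-133b is no evidence. miR-1 also passed on library sizes without TMM factors (-1.83) and on the deposited values (-1.57), and miR-133b passed under both of these settings and with all 4 groups in one fit. miR-499 had a log2 fold change of -0.99 (SE 0.8), and -0.3 without UL1, which rests on at most 8 reads in a library and depends on the pseudocount, and it and miR-133b had limma adjusted P values of 0.93. The libraries of UH and UL did not overlap for miR-206, which was chosen for this difference, and overlapped for the other members tested. They did not overlap for 7.49% of all miRNAs tested. No miRNA of the table had an adjusted P under 0.05 in this or the following comparisons, and the lowest were between 0.29 and 0.847. This changed for UH vs. SH when SH2 or UH1 was left out, with 12 and 8 miRNAs under 0.05 (limma adjusted P down to 8.25e-07 and 0.0173), and no member was called in either. The numbers with P no higher than 0.05 before adjustment were 6 for UH vs. UL, 11 for SH vs. SL, 12 for UH vs. SH, 9 for UL vs. SL and 12 for the interaction described below.

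SH was compared with SL to find differences between responders after superstimulation. miR-206 was lower in SH by -1.8 (SE 0.71), again as a description. The study itself, with edgeR, also called miR-206 lower in SH. SH1 had 3 reads of it, at the limit of detection, and the value was -1.9 with a pseudocount of 0.5 and -1.64 with 2. The value of miR-206 was smaller in size without SL1 (-1.26), SH1 (-1.71) or SH3 (-1.55). It was larger without SL2 (-2.06), SL3 (-2.08) or SH2 (-2.14). Apart from miR-206, 0 of 3 members tested passed, and over all 201 miRNAs tested, miR-206 included, 5.47% did. miR-1 differed by -0.02 (SE 0.5, limma adjusted P = 0.987) and miR-133a by 0.14 (SE 0.52, limma adjusted P = 0.922). Both groups were at or below 3 reads in every library for miR-499. The groups overlapped for all members tested other than miR-206, and did not overlap for 8.96% of all miRNAs tested.

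**Figure D3:**
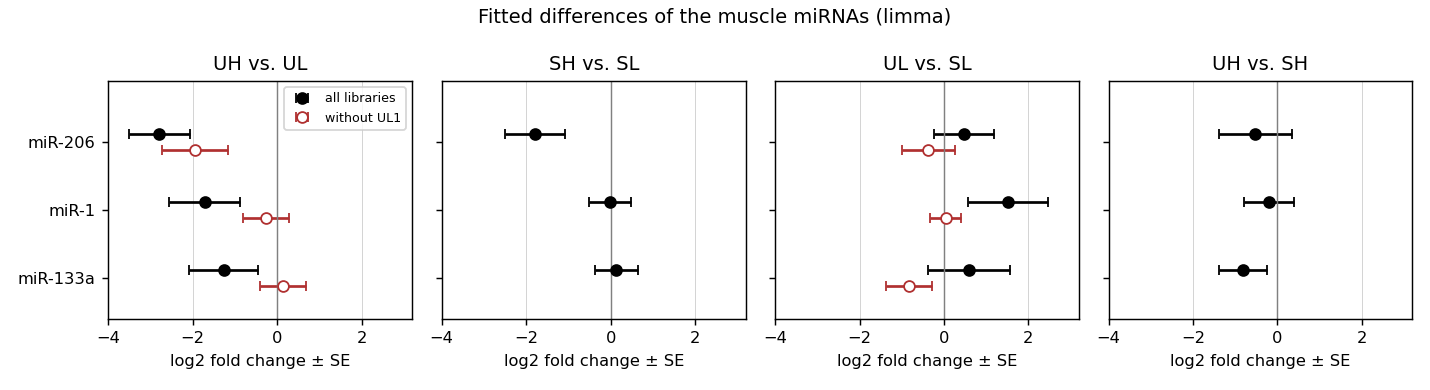
Log2 fold changes of miR-133a, miR-1 and miR-206 with their standard errors from limma, in 4 comparisons of 3 libraries against 3 (filled) and, where UL is compared, after leaving out UL1 (open). Without UL1 the difference of UH from UL is -1.95 for miR-206, -0.26 for miR-1 and 0.14 for miR-133a.

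The cycles were compared within each response. In low responders (UL vs. SL), 0 of 5 members tested passed, against 2.34% of all miRNAs tested. The study itself, with edgeR, called miR-1 and miR-133b higher in UL. miR-1 was higher in UL by 1.51 (SE 0.95, limma adjusted P = 0.701), and by 0.04 without UL1. miR-133a had a value of 0.59 (SE 0.97, limma adjusted P = 0.864), which was -0.83 without UL1. miR-206 had a value of 0.47 (SE 0.71, limma adjusted P = 0.862), and -0.37 without UL1. miR-499 had a value of 0.49 (SE 0.92, limma adjusted P = 0.888), and -0.2 without UL1. miR-133b had a limma adjusted P of 0.701, and passed without UL2 and with all 4 groups in one fit, again as a description. No member parted the libraries of UL from those of SL, which 7.94% of all miRNAs tested did.

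In high responders (UH vs. SH), 0 of 4 members passed, against 5.66% of all 212 miRNAs tested. The log2 fold changes were -0.2 (SE 0.6) for miR-1, -0.82 (SE 0.57) for miR-133a and -0.52 (SE 0.86) for miR-206, with limma adjusted P values of 0.922, 0.766 and 0.881. No member parted these groups, against 7.55% of all miRNAs. With 3 libraries in a group, standard errors of this size leave changes of 2-fold or more unresolved.

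Within heifers, as paired by library number, the large fall of L1 was not shared. The values did not bear out this pairing, so the changes below are between libraries of the same number. The log2 level changed from UL1 to SL1 by -4.59 for miR-1, by -2.62 for miR-133a and by -1.08 for miR-206. In heifers L2 and L3 the changes of these miRNAs were between -0.4 and 0.72. In H2, miR-1 was higher in the superstimulated cycle by 2.18, miR-133a by 1.79 and miR-206 by 1.9, whereas in H1 and H3 the changes were between -0.82 and 0.34. The miR-206 level of every H heifer was below that of every L heifer in both cycles, but miR-206 was chosen for this difference. In a single cycle, the responders did not overlap for 7.49% (U) and 8.96% (S) of all miRNAs tested.

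Whether the change between cycles differed between responders was tested as (SH - UH) - (SL - UL). Of 5 members tested, 0 passed, against 5.04% of all 238 miRNAs tested. The difference was 0.99 (SE 1.08, limma adjusted P = 0.936) for miR-206, 1.71 (SE 1.2, limma adjusted P = 0.847) for miR-1 and 1.41 (SE 1.16, limma adjusted P = 0.847) for miR-133a. Without UL1 these were 0.15, 0.24 and -0.01, and without UL2 miR-1 (2.7) and miR-133b passed, the latter again as a description.

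**Figure D4:**
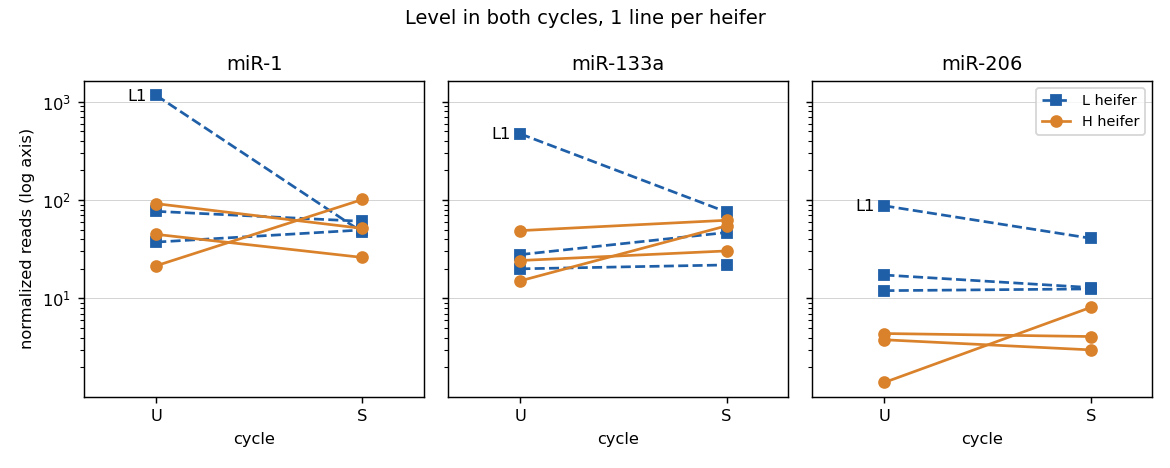
Normalized reads of miR-1, miR-133a and miR-206 in the unstimulated (U) and superstimulated (S) cycle on a logarithmic axis. There is 1 line for each of the 3 L (squares, dashed) and 3 H heifers (circles, solid), as paired by library number. L1 falls from 1158.9 to 47.1 in miR-1 and from 87.4 to 40.9 in miR-206. Of these 3 miRNAs only miR-206, which was chosen for its difference by response, has all L heifers above all H heifers in both cycles.

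Across the 12 libraries, which come in pairs from 6 heifers and share their scaling, the correlations between the members depended on single libraries. On the log2 scale, Pearson's r between miR-1 and miR-133a was 0.889, and 0.571 without UL1. Between miR-1 and miR-206 it was 0.695, and 0.33 without UL1, and between miR-133a and miR-206 it was 0.696, and 0.363 without UL1. Without both UL1 and SL1 the values were 0.685, 0.464 and 0.0678 in the same order. These are given as a description.

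Among 186 other miRNAs with a read in at least 6 libraries, the 3 most like miR-206 over the 12 libraries were miR-31 (r = 0.827, rho = 0.806), miR-155 (r = 0.693, rho = 0.769) and miR-1307 (r = 0.647, rho = 0.629). miR-31 never exceeded 3 reads, and miR-155, which is abundant in leukocytes, varied from 88 to 218 reads. Without UL1 the r values with miR-206 were 0.8, 0.663 and 0.445 in the same order. Without both UL1 and SL1 they were 0.66, 0.804 and 0.322. The 3 most like miR-1 were miR-144 (r = 0.689, rho = 0.683), miR-378 (r = 0.664, rho = 0.238) and miR-31 (r = 0.482, rho = 0.384). Without UL1, in which miR-378 had 25.1 normalized reads against a median of 8 in the others, its r with miR-1 was -0.103. That of miR-144, which had 0 to 8 reads in a library, was then 0.532, and that of miR-31 was 0.247.

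A wider list of 22 miRNAs that are well known in muscle but made in many tissues was also counted, such as the miR-29 family, miR-378 and miR-486. Of 18 with a read, 15 or 16 were tested in each comparison. None passed in UH vs. UL or in UH vs. SH, at a median log2 fold change of 0.04 and 0.1, against 0.04 and 0.14 over all miRNAs. In SH vs. SL (median -0.11, against -0.08 over all) and in UL vs. SL (0.13, against 0.07), 1 passed, miR-181a, with -1.1 (SE 0.47, limma adjusted P = 0.667) and -1.02 (SE 0.45, limma adjusted P = 0.701). miR-181a also passed in the interaction, with -1.49 (SE 0.67, limma adjusted P = 0.847). Over all miRNAs tested, 2.64% passed in UH vs. UL, 5.66% in UH vs. SH, 5.47% in SH vs. SL, 2.34% in UL vs. SL and 5.04% in the interaction. The summed level of this list in UL1 was the 11th highest of 12, but miR-486 alone made up 1146.8 of its 2427.6 normalized reads. Single members could differ from the sum. In UL1, miR-378, miR-29c and miR-29b were 1.72, 1.14 and 1.08 times as high as in the next library.

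Markers of other sources of plasma RNA did not stand out in UL1 as lists. The summed level in UL1 was the 10th highest of the 12 libraries for the erythroid list (miR-451, miR-144 and miR-486), the 9th for the platelet and endothelial miRNAs (miR-126-3p and miR-126-5p), the 7th for 5 leukocyte miRNAs and the 9th for 4 liver miRNAs. Within the erythroid list, however, miR-451 had 45.6 normalized reads in UL1 against 7.4 to 43.8 in the other libraries, and miR-144 had 7.4 against 0 to 4.1. miR-486, which is also on the wider muscle list, had 1146.8 of the summed 1199.8 in UL1, so the rank of the erythroid list was largely its own. In the other libraries miR-486 had 983.9 to 8393.8. Of all these markers, miR-126-5p alone passed the thresholds in a comparison, higher in UH than in SH. The part of these miRNAs in the level of the members was not tested.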

How the data were processed

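Plasma EV small RNA was sequenced in 12 libraries (UL, UH, SL and SH, 3 each, grouped by their labels). The authors prepared libraries with unique molecular identifiers, trimmed with Cutadapt, aligned to the UMD3.1 genome (Bowtie2 2.2.2), annotated perfect matches against miRBase and tested with edgeR and TMM. The deposited values are a score: reads scaled by the authors to the mapped reads of a library (TPM, without TMM) and cut to integers. All columns were used. Reads were calculated back as whole multiples of a step per library (4.478 to 7.934), and of 9396 values 0 failed to return the deposited value. Because the deposited unit is not a count, the planned count test was replaced by limma 3.58.1 (R 4.3.3, two-sided, eBayes with trend) on log2(normalized reads + 1), with Benjamini-Hochberg adjustment over all miRNAs tested. TMM factors (30% and 5% trimmed) were computed with own code, and reads scaled to the mean depth of 44511.3. A miRNA was tested if 2 or more libraries of a compared group had 1 or more reads of it. With 3 libraries against 3, an exact permutation test cannot go below 0.1. Scripts were tested on simulated data. Intervals are exact (Clopper-Pearson, 95%).

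U and S libraries were paired by number, following the numbering of heifers in the study, since the labels do not name the heifer. The correlation of their deviations from the group means over 238 miRNAs was 0.1, 0.06 and -0.05 in L and 0.05, 0.21 and 0.13 in H. Libraries with the same number from different heifers gave -0.03 to 0.19, so these values do not bear out the pairing. All 6 members were named with their values. Of the other miRNAs, the 3 highest in Pearson's r with miR-206 and with miR-1 were named, together with those of the muscle list that passed the thresholds. miR-146a, miR-184, miR-29b, miR-29c and the single marker miRNAs were named after their values were seen. The members and lists were chosen with earlier results of these data known. Alternatives were other scalings, filters, pseudocounts and limma settings, a replicate block and leaving out each library. Figures were drawn with matplotlib 3.10.9 (Python 3.11.15).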

Additional observations from a re-analysis of the deposited data

How the results depend on the processing

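Leaving out each library gave 5 to 10 miRNAs called in UH vs. UL (6 with all libraries), 8 to 34 in SH vs. SL (11), 6 to 24 in UH vs. SH (12), 7 to 15 in UL vs. SL (5) and 7 to 21 in the interaction (12), with the highest values for SH vs. SL, UH vs. SH and the interaction without SH2, for UH vs. UL without UL3 and for UL vs. SL without SL2. A minimum of 10 reads gave 2, 5, 7, 0 and 4 calls in the same order, where limma gave 4 miRNAs an unadjusted P within 0.05 in UL vs. SL. The deposited values gave 7 in SH vs. SL, 7 in UH vs. SH and 3 in UL vs. SL. No filter gave 7 in UH vs. SH, and all 4 groups in one fit gave 18 in SH vs. SL and 10 in UL vs. SL. For UL vs. SL, a pseudocount of 2 gave 3 and limma-voom gave 8. Of 348 values of members under alternatives, 314 had the same direction and side of the thresholds, 4 no longer passed, 15 newly passed and 15 changed sign. The 4 were values of miR-206 in SH vs. SL. There the side of the thresholds is no evidence, since miR-206 was singled out for that difference. As a description, miR-206 had values of -3.33 to -1.95 in UH vs. UL and of -2.14 to -1.26 in SH vs. SL when a library was left out. Its value in SH vs. SL was -1.68 on the deposited values. Values that changed sign were those of members that did not pass. For SH vs. SL, they were miR-133a with library sizes without TMM factors (-0.01) and miR-1 with median-of-ratios factors (0.01) and on the deposited values (0.14). When a library was left out, the ranges that crossed 0 were -2.1 to 0.14 for miR-133a in UH vs. UL, -0.5 to 0.46 for miR-1 and -0.33 to 0.54 for miR-133a in SH vs. SL, and -0.71 to 0.31 for miR-1 in UH vs. SH. In UL vs. SL they were -0.83 to 1.42 for miR-133a, -0.37 to 1.02 for miR-206 and -0.2 to 1.34 for miR-499, and in the interaction -0.01 to 2.23 for miR-133a. The likeness of miR-378 to miR-1 was -0.103 without UL1 and -0.114 without UL1 and SL1. Shares of the members without miR-133b in the sum stayed within their intervals. The causes were not tested.

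With the replicate number as a block, UL vs. SL gave 3 calls and no member changed its call in SH vs. SL, UL vs. SL, UH vs. SH or the interaction. In UH vs. UL the same numbers belong to different heifers, and the block gave miR-1 a log2 fold change of -1.72 (SE 0.39, limma adjusted P = 0.0116) and let miR-133a (limma adjusted P = 0.504) and miR-133b (0.976) pass. The planned edgeR alternative was not run, because the deposited unit is not a count. Depth limits miR-133b, miR-208b and miR-499, which had at most 8 reads in a library.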
